A study of Drosophila melanogaster with 21 samples.

Results

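The genes described here are 59 genes of Drosophila melanogaster that are still known by a CG number alone and whose RNA was lower in 3 kinds of scrib mutant tumour. They were chosen among 5152 genes with a single current symbol made of CG and digits, and each gene was read by its brightest probe set over all 21 arrays. A member had a group mean more than 1 log2 lower, with all 3 arrays below all 3 of the other group, in scrib-+ab tumours against ab discs, in scrib-+RasACT tumours against FRT control discs and in scrib-+NACT tumours against FRT control discs. The 59 are 1.15% of the CG genes. Among the 6801 genes with other symbols 103 met the same conditions, or 1.51%. The mirror image, higher in all 3 contrasts, was found for 55 CG genes, or 1.07%.

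RNA was measured on Affymetrix Drosophila 2.0 arrays in mosaic eye-antennal discs of larvae in the third instar, dissected at day 5 after egg deposition from a w1118 background at 25 °C. There were 7 groups of 3 arrays. The scrib-+ab discs carried clones that lacked the polarity gene scribble and overexpressed Abrupt, and the ab discs carried clones that overexpressed Abrupt alone. The scrib-+RasACT+bskDN and scrib-+RasACT discs carried scrib mutant clones with activated Ras, with and without bskDN, which blocks the JNK kinase Basket. The scrib-+NACT+bskDN and scrib-+NACT discs carried scrib mutant clones with the activated intracellular part of Notch, again with and without bskDN, and the FRT control discs carried clones without these changes. The labels call all 5 scrib mutant groups tumours, those with bskDN included, and the ab and control discs free of tumours. Clones were made with ey-FLP and the MARCM system in which tubulin-GAL4 drives the transgenes, so that each disc held mutant and wild type cells and the RNA came from the mixture. In such bulk samples fewer cells of a type and less RNA per cell cannot be told apart. The samples were prepared in triplicate, but separate collections of larvae are not stated, and p-values therefore measure only the spread between these arrays. Some arrays were close to each other. The mean of fat body genes, each centred on its own mean, was 3.99 and 3.98 log2 on scrib-+NACT arrays 2 and A and 0.72 on array 1. The members' centred mean had an SD of 0.038 log2 over the scrib-+NACT+bskDN arrays, against 0.151 to 0.363 in the other groups.

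Values are log2 signals as deposited, with a floor of 2.17, and the number of arrays limits their precision. Markers of the eye and antennal disc were at a mean of 9.8 to 10.87 log2 in each of the 7 groups, and none of the 9 measured was under 3 log2 on all arrays of a group. The 6 arrays of scrib-+ab and ab stood apart: their added poly-A control transcripts averaged 2.2 to 2.23 log2, against 6.31 to 8.94 on the other 15 arrays, and GAPDH was 2.2 to 3.69 log2 lower at its 5′ than at its 3′ end, against 0.29 to 0.67 on the others. The study also used fewer discs for these 2 groups than for the control. For scrib-+ab and for ab against the control, genotype, amount of tissue and these array differences cannot be told apart. The contrast of scrib-+ab with ab lies within these 6 arrays, and every contrast among the bskDN, Ras, Notch and control groups lies within the other 15.

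As background, scribble encodes a scaffold protein of the basolateral membrane, and its loss in disc epithelium disrupts apical-basal polarity and activates the JNK stress kinase pathway. Combined with an activated oncogene, scrib mutant clones overgrow and the larvae delay pupation, while JNK is known to drive invasion in them. Late in larval life the disc is normally a tissue in transition: photoreceptors differentiate behind a moving furrow, and the steroid hormone ecdysone, made in the ring gland, switches on waves of genes that prepare the disc for metamorphosis. A CG number means that no gene name has been assigned, not that nothing is known of the protein. In the gene table used here 7 of the 59 carry an alternate name that gives a protein family, and for the other 52 no role is stated. All 59 are annotated as protein coding.

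In the 3 contrasts that chose the genes the falls covered a wide range, and they are given as a description without a test. In scrib-+ab against ab the differences ran from -6.36 to -1.004 log2 with a median of -2.24, and 33 genes were lower by over 2 log2. In scrib-+RasACT against the control they ran from -4.43 to -1.04 with a median of -2.14, and in scrib-+NACT against the control from -6.17 to -1.01 with a median of -2.09. Lower by over 3 log2 were 18, 10 and 12 genes in these 3 contrasts. The limit of 1 log2 cut through a continuous range. Just inside it were CG17646 (-1.004 in scrib-+ab against ab), CG32091 (-1.01 in scrib-+NACT against the control) and CG10508 (-1.04 in scrib-+RasACT against the control). Just outside were CG8170 (-0.99 in scrib-+NACT against the control), CG18549 (-0.96) and CG33939 (-0.93), the last pair in scrib-+ab against ab.

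The members differed in level as well as in fall. The median of their mean signals was 5.65 log2 in scrib-+ab and 8.45 in ab, 6.98 in scrib-+RasACT+bskDN and 5.59 in scrib-+RasACT, 6.51 in scrib-+NACT+bskDN and 5.35 in scrib-+NACT, and 8.01 in the FRT control. In the control 53 of the 59 had a mean of at least 5 log2, against 35, 33 and 31 in scrib-+ab, scrib-+RasACT and scrib-+NACT. At the low end 8 members were under 3 log2 on all 9 arrays of these 3 tumours, so that the size of their falls is set by the low end of the scale. The group with the highest mean was ab for 32 members, the control for 19, scrib-+NACT+bskDN for 6 and scrib-+RasACT+bskDN for 2. The rule itself keeps scrib-+ab, scrib-+RasACT and scrib-+NACT from being highest.

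**Figure D1:**
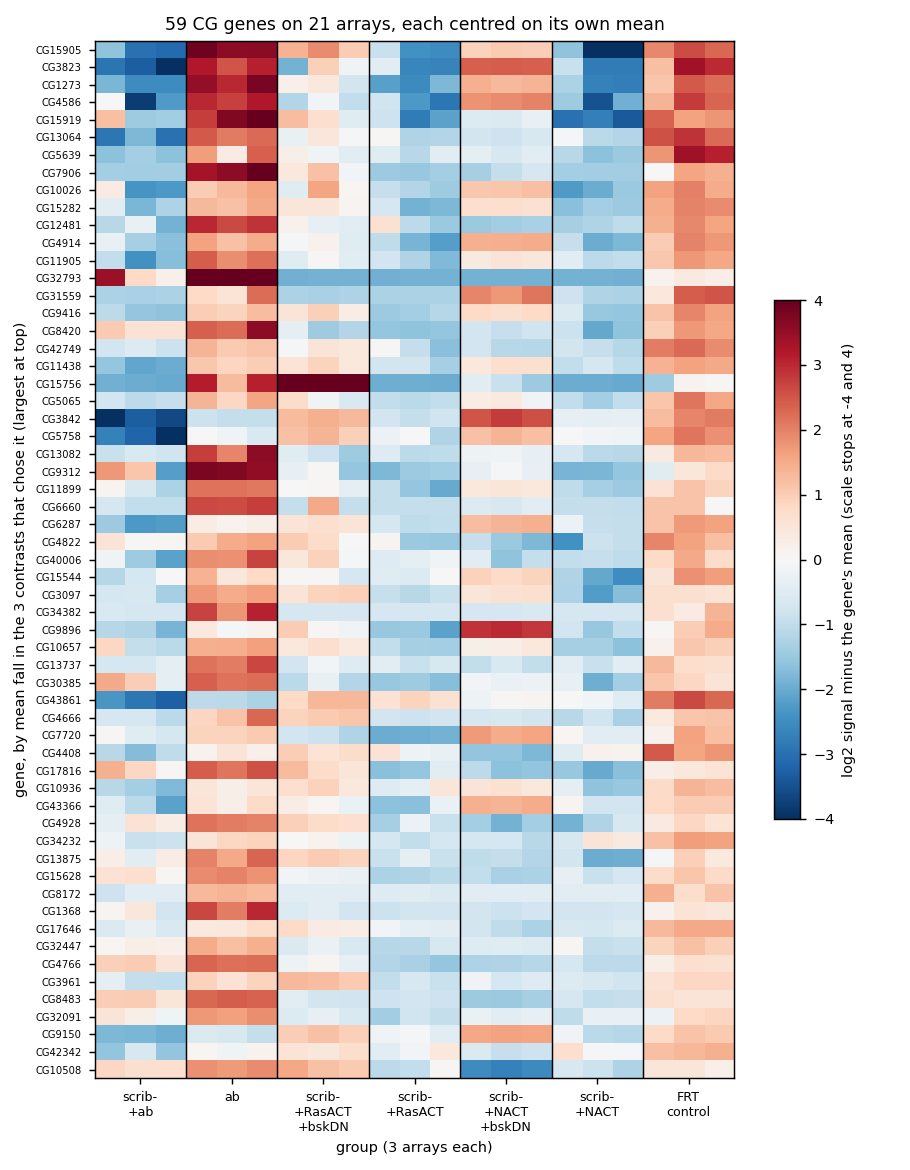
Log2 signal of the 59 members (rows, by mean fall in the 3 contrasts that chose them) on 21 arrays (columns, 3 per group), each gene centred on its own mean; red is above and blue below that mean, and the scale stops at -4 and 4. The scrib-+ab columns are lower than the ab columns, and the scrib-+RasACT and scrib-+NACT columns lower than the control columns, as the rule requires, and the columns with bskDN, which the rule did not read, differ from gene to gene.

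The largest mean falls over the 3 contrasts were those of 6 members, CG15905 (-5.55 log2), CG3823 (-5.16), CG1273 (-4.67), CG4586 (-4.53), CG15919 (-4.29) and CG13064 (-3.83). None of them has an alternate name that states a function. CG15905 read 6.57, 5.19 and 5.07 log2 in scrib-+ab, against 12.08, 11.74 and 11.79 in ab. In the other groups it read 9.56, 10.08 and 9.20 in scrib-+RasACT+bskDN, 7.30, 5.75 and 5.66 in scrib-+RasACT, 9.10, 9.23 and 9.18 in scrib-+NACT+bskDN, 6.58, 3.70 and 2.61 in scrib-+NACT, and 10.11, 10.80 and 10.49 in the control. Both groups with bskDN thus lay above all arrays of the tumours without it and below all arrays of the control. The spread among the scrib-+NACT arrays was wide, with an SD of 2.05 log2.

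CG3823 read 3.56, 3.19 and 2.42 log2 in scrib-+ab and 9.68, 9.0 and 9.58 in ab. It read 4.58, 7.44 and 6.34 in scrib-+RasACT+bskDN, 6.01, 3.85 and 3.81 in scrib-+RasACT, 8.87, 8.88 and 8.85 in scrib-+NACT+bskDN, 5.57, 3.67 and 3.67 in scrib-+NACT, and 7.67, 9.83 and 9.47 in the control. The scrib-+NACT+bskDN arrays lay inside the range of the control, whereas the scrib-+RasACT+bskDN arrays lay below it and overlapped the scrib-+RasACT arrays. CG4586 had the same order, with 4.97, 6.01 and 5.15 in scrib-+RasACT+bskDN, 5.33, 3.84 and 3.24 in scrib-+RasACT, 7.92, 8.03 and 8.12 in scrib-+NACT+bskDN, 4.71, 2.63 and 4.22 in scrib-+NACT, and 7.49, 8.92 and 8.47 in the control. Its scrib-+ab arrays were scattered, at 6.11, 2.34 and 3.85, against 9.13, 8.85 and 9.35 in ab.

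CG1273 read 3.74, 3.05 and 3.05 log2 in scrib-+ab and 9.10, 8.57 and 9.38 in ab. Its values were 5.76, 6.00 and 4.84 in scrib-+RasACT+bskDN, 3.40, 3.04 and 3.77 in scrib-+RasACT, 7.0, 6.87 and 6.91 in scrib-+NACT+bskDN, 4.31, 2.87 and 2.79 in scrib-+NACT, and 6.68, 8.01 and 7.81 in the control. It was intermediate in scrib-+RasACT+bskDN, at the low edge of the control in scrib-+NACT+bskDN and above every control array in ab. CG15919 was intermediate with either bskDN genotype, at 8.20, 7.66 and 6.48 in scrib-+RasACT+bskDN and 6.44, 6.39 and 6.70 in scrib-+NACT+bskDN, against 9.35, 8.59 and 8.75 in the control. CG13064 stayed low in all 5 scrib mutant groups, with 2.60, 3.67 and 2.50 in scrib-+ab, 5.19, 5.92 and 5.40 in scrib-+RasACT+bskDN, 5.52, 4.26 and 4.30 in scrib-+RasACT, 4.75, 4.63 and 4.84 in scrib-+NACT+bskDN, and 5.38, 4.41 and 4.30 in scrib-+NACT. Its ab arrays (7.92, 7.55 and 7.74) and control arrays (8.01, 8.35 and 7.75) overlapped each other and lay above all of these.

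**Figure D2:**
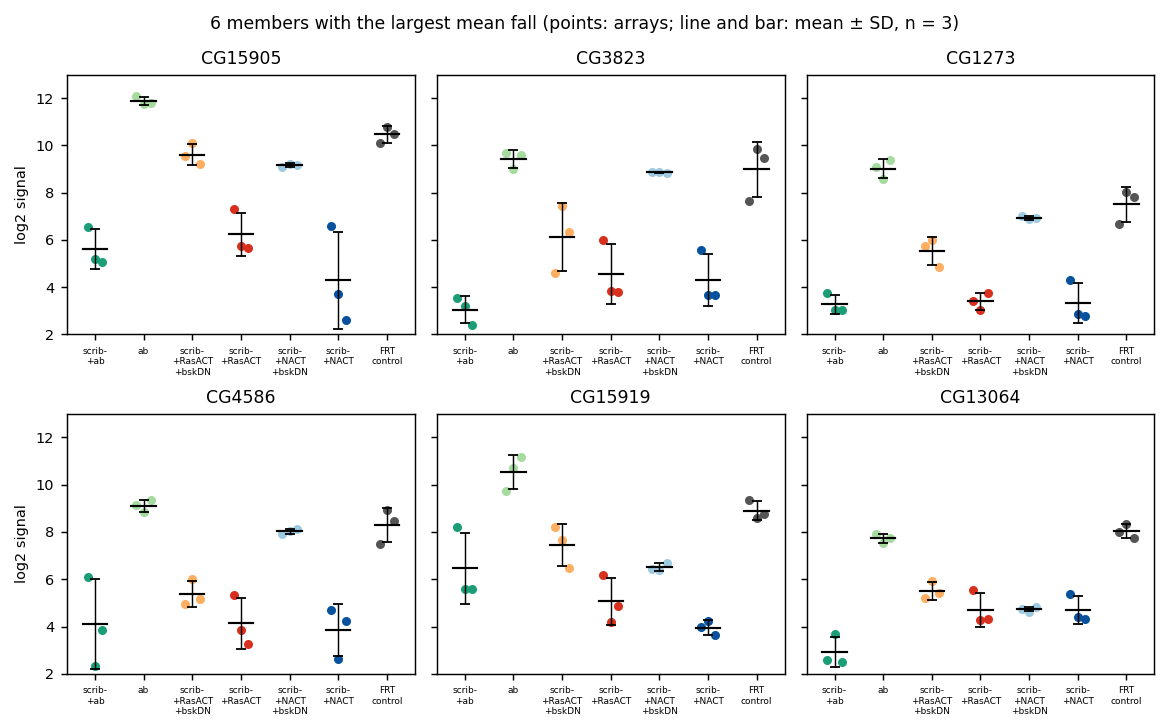
Log2 signal per array (points) with the mean and SD (line and bar, n = 3) for the 6 members with the largest mean fall, over the 7 groups. CG15905 lies between the tumours and the control with bskDN in both backgrounds. CG1273, CG3823 and CG4586 lie inside the range of the control's arrays in scrib-+NACT+bskDN and below it in scrib-+RasACT+bskDN, and CG13064 stays low in all 5 scrib mutant groups.

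The comparison of the tumours with and without bskDN shows how the RNA of these genes in whole discs differed when JNK was blocked in the clones. The bskDN arrays were not read by the rule, but the tumour arrays they are set against were chosen low by it, so the counts below are not independent of the choice of genes. The rule also kept members above the floor in the control, where their lowest mean was 3.77 log2. Of all probe sets 35.2% to 43.1% were at the floor on an array. Shares over all probe sets or genes, here and below, are therefore not matched to the members in level. In scrib-+RasACT+bskDN against scrib-+RasACT 24 of the 59 genes rose and none fell in limma's moderated test (40.7% of the members), where 2.44% of all 18769 probe sets rose and 1.78% fell. The median difference of the members was 1.15 log2, against 0 over all probe sets. In the same test 43 members had an unadjusted p under 0.05, and the share of all probe sets under it was not computed. All 3 scrib-+RasACT+bskDN arrays lay above all 3 scrib-+RasACT arrays for 38 members, against 12.1% of all genes, and below them for none, against 12.3%. Beside these counts, 1 of 11 haemocyte and 3 of 9 muscle genes fell, and 7 of 13 photoreceptor and neuron genes rose. Fat body genes were scattered in scrib-+RasACT+bskDN, with array means of 4.55 to 10.74 log2, against 3.82 to 4.31 in scrib-+RasACT. The part of these differences in the members' values was not tested.

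In scrib-+NACT+bskDN against scrib-+NACT 27 members rose and 2 fell (45.8% and 3.39%), where 1.64% of all probe sets rose and 3.73% fell. The median difference was 0.72 log2. The arrays were separated upwards for 33 members, against 20.3% of all genes, and downwards for 8, against 16.3% of all genes. Beside these counts, lists of marker genes of other cell types were lower on the scrib-+NACT+bskDN arrays. Of 11 haemocyte genes 8 fell, and their mean was 4.27 to 4.56 log2 per array against 7.24 to 8.26 in scrib-+NACT. Of 9 muscle genes 7 fell, with means of 4.18 to 4.35 log2 against 7.45 to 7.53. Of 4 fat body genes 1 fell (4.52 to 4.79 log2 against 6.76 to 10.03), and of 7 salivary gland genes 3 fell (3.21 to 3.29 against 4.53 to 5.67). Of 9 neuroblast and glial genes 3 fell and 1 rose (5.88 to 6.14 against 7.01 to 7.29). In scrib-+NACT+bskDN 1 of the 11 haemocyte genes and 2 of the 9 muscle genes were under 3 log2 on all 3 arrays. The part of these differences in the members' values was not tested.

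With bskDN 16 members rose in both tumours, by 1.00 to 6.74 log2 in the Ras and by 1.07 to 3.98 log2 in the Notch background: CG1273, CG3097, CG3842, CG4914, CG5758, CG6287, CG7720, CG9150, CG9416, CG9896, CG10657, CG11438, CG11899, CG15282, CG15756 and CG15919. The share of all probe sets that rose in both was not computed, and the rule chose the tumour arrays of both comparisons low. CG3842 had the smallest error of these 16 members. It read 7.99, 8.14 and 8.03 log2 in scrib-+RasACT+bskDN against 5.98, 5.77 and 5.94 in scrib-+RasACT, and 9.26, 9.54 and 9.31 in scrib-+NACT+bskDN against 6.39, 6.38 and 6.41 in scrib-+NACT. The rises were 2.16 ± 0.081 log2 (SE, adjusted p = 2e-06) and 2.98 ± 0.081 (adjusted p = 3.6e-07). Its control arrays read 7.95, 8.68 and 8.82, so that all 3 scrib-+NACT+bskDN arrays lay above the control, by 0.89 ± 0.19 log2, which was under the limit of 1 for a call.

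CG11438, named WUN-like in the gene table after the lipid phosphate phosphatases of the Wunen family, gave a closely matched pair of rises. It read 7.49, 7.81 and 7.37 log2 in scrib-+RasACT+bskDN against 6.20, 6.22 and 5.62 in scrib-+RasACT, and 7.35, 7.60 and 7.58 in scrib-+NACT+bskDN against 5.96, 6.27 and 5.93 in scrib-+NACT. The rises were 1.55 ± 0.19 (adjusted p = 0.0012) and 1.46 ± 0.19 log2 (adjusted p = 0.001), and its control arrays, at 8.33, 8.56 and 8.44, stayed above all arrays with bskDN. CG4914, which carries the serine protease name SP39, read 10.01, 10.23 and 9.60 in scrib-+RasACT+bskDN against 9.06, 8.23 and 7.88 in scrib-+RasACT, and 11.51, 11.54 and 11.57 in scrib-+NACT+bskDN against 9.16, 8.10 and 8.26 in scrib-+NACT. In the Notch background it rose by 3.03 ± 0.36 log2 (adjusted p = 0.00064) and its arrays lay within the control range of 11.07, 12.07 and 11.81. In the Ras background the rise was 1.56 ± 0.36 (adjusted p = 0.026), a call that was lost without scrib-+RasACT+bskDN array 1 or 2 or without scrib-+RasACT array 2 (adjusted p = 0.082, 0.099 and 0.094).

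CG7720, named dSLC5A1 after a family of sodium-coupled solute carriers, was at 5.70, 5.59 and 5.25 log2 in scrib-+RasACT+bskDN against 4.48, 4.50 and 4.55 in scrib-+RasACT, and at 8.17, 7.93 and 8.03 in scrib-+NACT+bskDN against 6.55, 6.01 and 6.04 in scrib-+NACT. Its rise of 1.00 ± 0.16 log2 in the Ras background lay at the limit for a call, and without scrib-+RasACT+bskDN array 1 or 2 or scrib-+RasACT array 1 or 2 it was 0.91 to 1.00 and was no longer called. Its rise in the Notch background was 1.84 ± 0.16 log2 (adjusted p = 0.00013). CG1273 rose by 2.13 ± 0.45 log2 in the Ras background (adjusted p = 0.018), a call lost without scrib-+RasACT+bskDN array 1 or 2 or scrib-+RasACT array 1 or 2 (adjusted p = 0.057 to 0.07), and by 3.60 ± 0.45 in the Notch background (adjusted p = 0.00084). CG15919 rose by 2.38 ± 0.55 (adjusted p = 0.028) and 2.55 ± 0.55 log2 (adjusted p = 0.014). These calls were lost without scrib-+RasACT+bskDN array 1 or 2 or scrib-+RasACT array 2 (adjusted p = 0.092 to 0.097), and without scrib-+NACT+bskDN array B or scrib-+NACT array A (0.053 and 0.058).

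With bskDN 7 members rose in the Ras background and were not called in the Notch background (CG3961, CG4666, CG4766, CG4928, CG7906, CG13875 and CG17816), and 11 were the other way round (CG3823, CG4586, CG5065, CG9312, CG10026, CG10936, CG11905, CG15544, CG15905, CG31559 and CG43366). Shares of all probe sets with these patterns were not computed. Being called in one and not in the other does not show that the effects differed, and the difference was tested as an interaction. It was called for 13 members: the effect of bskDN was more positive in the Ras background for 10 and in the Notch background for 3 (16.9% and 5.08%), where 3.29% and 1.22% of all probe sets were called, or 4.51% in all. A further quantile normalization changed this split to 7 and 4 members, and the share of all called probe sets that were more positive in the Ras background was 73.0% in the deposited values and 56.0% after it. The members that lost the call there were CG34232 (1.16 log2, adjusted p = 0.1), CG4666 (0.84, adjusted p = 0.027) and CG17646.

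CG15756 showed the largest interaction among the members. It read 8.99, 9.37 and 8.52 log2 in scrib-+RasACT+bskDN and 2.22 on each scrib-+RasACT array, a rise of 6.74 ± 0.26 log2 (adjusted p = 2.1e-06). In scrib-+NACT+bskDN it read 3.73, 3.30 and 2.75, against 2.20, 2.19 and 2.18 in scrib-+NACT, and the interaction was 5.67 ± 0.37 (adjusted p = 7.4e-05). The rise in the Notch background, 1.07 ± 0.26 log2 (adjusted p = 0.024), was not called without scrib-+NACT+bskDN array 1 or A or any scrib-+NACT array (adjusted p = 0.054 to 0.076). The control arrays of CG15756 were low, at 2.77, 4.33 and 4.22, and all 3 scrib-+RasACT+bskDN arrays stood over 4 log2 above them, a rise of 5.19 ± 0.47 log2 (adjusted p = 5.8e-06). The tumour arrays of this gene sat near the floor, where the background correction sets the value and the size of a fold change.

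CG10508 moved in opposite directions. It read 7.82, 7.43 and 7.30 log2 in scrib-+RasACT+bskDN against 5.20, 5.28 and 6.30 in scrib-+RasACT, a rise of 1.92 ± 0.29 (adjusted p = 0.004). It read 3.75, 3.56 and 3.72 in scrib-+NACT+bskDN against 5.61, 5.39 and 5.04 in scrib-+NACT, a fall of -1.67 ± 0.29 (adjusted p = 0.0053), and the interaction was 3.59 ± 0.42 (adjusted p = 0.0013). With control arrays at 6.73, 6.73 and 6.45, all 3 arrays of this gene lay above the control in scrib-+RasACT+bskDN (0.88 ± 0.23 log2, under the limit for a call), and it was 2.96 ± 0.23 log2 lower than the control in scrib-+NACT+bskDN (adjusted p = 4.6e-07). Its 2 other probe sets, which do not meet the rule, had group means of 6.45 and 4.36 in scrib-+RasACT+bskDN against 4.31 and 2.53 in scrib-+RasACT, and of 3.42 and 2.42 in scrib-+NACT+bskDN against 3.94 and 2.52 in scrib-+NACT. Averaged over the 3 probe sets the difference in the Notch background was -0.77 log2 (adjusted p = 0.02), under the limit for a call.

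CG4408 was the other member that fell with bskDN in the Notch background, and it was not called in the Ras background. It read 9.05, 9.06 and 8.83 log2 in scrib-+NACT+bskDN against 10.14, 10.80 and 10.79 in scrib-+NACT (-1.60 ± 0.26, adjusted p = 0.0035), and 11.61, 11.19 and 11.36 in scrib-+RasACT+bskDN against 11.20, 10.44 and 10.34 in scrib-+RasACT (0.72 ± 0.26, adjusted p = 0.14). The interaction was 2.32 ± 0.37 (adjusted p = 0.0055). CG3961, whose alternate name ACSL1 is that of a long-chain acyl-CoA synthetase, an enzyme that activates fatty acids, had an interaction of 1.81 ± 0.21 (adjusted p = 0.0014). It read 10.17, 10.11 and 9.93 in scrib-+RasACT+bskDN against 7.91, 8.23 and 8.01 in scrib-+RasACT, and 8.75, 8.19 and 8.38 in scrib-+NACT+bskDN against 8.33, 8.26 and 8.09 in scrib-+NACT. Its Ras rise was 2.03 ± 0.15 (adjusted p = 8.5e-05), which put it above every control array (9.47, 9.73 and 9.71), while the Notch difference was 0.22 ± 0.15 (adjusted p = 0.5).

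The effect was more positive in the Notch background for 3 members. CG31559 read 2.36, 2.34 and 2.40 log2 in scrib-+RasACT+bskDN and 2.38, 2.37 and 2.36 in scrib-+RasACT. It read 5.57, 5.37 and 5.76 in scrib-+NACT+bskDN and 2.79, 2.41 and 2.35 in scrib-+NACT. The Notch rise was 3.05 ± 0.12 (adjusted p = 2.3e-06), the interaction was -3.05 ± 0.17 (adjusted p = 3.6e-05), and the control arrays read 4.04, 6.04 and 6.14. CG15544 read 7.63, 7.62 and 6.90 in scrib-+RasACT+bskDN and 7.09, 7.01 and 7.56 in scrib-+RasACT, which overlapped, and 8.50, 8.34 and 8.48 in scrib-+NACT+bskDN against 6.38, 5.53 and 5.09 in scrib-+NACT, which did not. Its interaction was -2.61 ± 0.47 (adjusted p = 0.011). CG9896 rose in both, and by more in the Notch background: it read 5.82, 4.85 and 4.68 in scrib-+RasACT+bskDN against 3.28, 3.32 and 2.66 in scrib-+RasACT, and 7.68, 7.78 and 7.64 in scrib-+NACT+bskDN against 4.05, 3.31 and 3.81 in scrib-+NACT. Its interaction of -1.95 ± 0.46 (adjusted p = 0.034) was kept only without scrib-+NACT array 1, scrib-+RasACT+bskDN array 1 or scrib-+RasACT array 3, and leaving out any of the other 9 of the 12 arrays gave an adjusted p of 0.071 to 0.087.

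**Figure D3:**
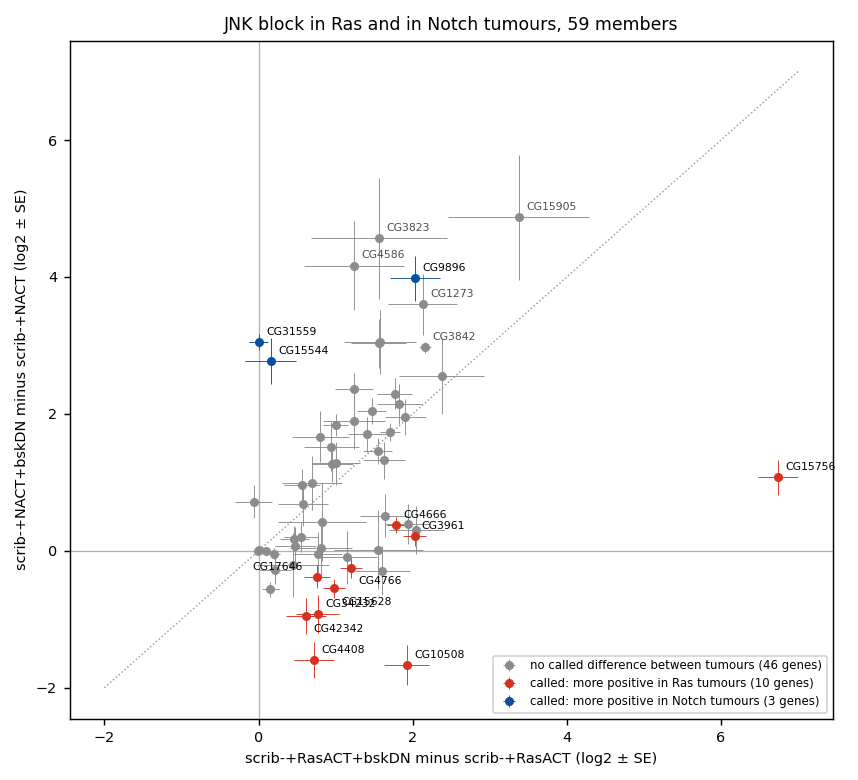
Difference with bskDN in the Ras background (x axis) and in the Notch background (y axis), log2 ± SE from limma, for the 59 members, with the dotted line marking equal effects. Red marks the 10 genes whose effect was more positive in the Ras background, with CG15756 at 6.74 and 1.07, and blue the 3 more positive in the Notch background; no member was called lower on the x axis.

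The difference of scrib-+RasACT+bskDN from scrib-+NACT+bskDN was taken between arrays that the rule did not read. The spread in its test came from all 12 arrays of the 4 Ras and Notch groups, which include tumour arrays that the rule read. Of the 59 members 15 were higher and 7 lower (25.4% and 11.9%), where 4.26% and 2.04% of all probe sets were called. The probe sets were not matched to the members in level, as described above. After a further quantile normalization the members split 10 to 9, and the share of higher calls among all called probe sets, 67.6% in the deposited values, was 54.1%. The highest differences were CG15756 (5.70 ± 0.26, adjusted p = 2.5e-06), CG10508 (3.84 ± 0.29, adjusted p = 4.1e-05) and CG4408 (2.41 ± 0.26, adjusted p = 0.0003), and the lowest were CG31559 (-3.20 ± 0.12, adjusted p = 1.1e-06), CG4586 (-2.65 ± 0.65, adjusted p = 0.023) and CG9896 (-2.59 ± 0.33, adjusted p = 0.00074). The call of CG4586 was lost without any of the 3 scrib-+NACT+bskDN arrays or without scrib-+RasACT+bskDN array 1 or 3 (adjusted p = 0.061 to 0.082). The marker lists differed between these groups too, with haemocyte means of 5.41 to 7.30 log2 in scrib-+RasACT+bskDN and 4.27 to 4.56 in scrib-+NACT+bskDN, and photoreceptor and neuron means of 8.20 to 8.36 and 5.95 to 5.97.

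The genotypes with bskDN were also set against the FRT control, whose arrays the rule chose high. In scrib-+RasACT+bskDN 27 members were lower and 1 higher than in the control (45.8% and 1.69%), where 1.51% of all probe sets were lower and 1.87% higher, or 3.38% in all. In scrib-+NACT+bskDN 33 were lower and 1 higher (55.9% and 1.69%), where 4.13% were lower and 1.58% higher, or 5.71% in all. After a further quantile normalization 28 were lower and 1 higher in the Notch background, and the share of higher calls over all probe sets was 41.3% instead of 27.6%. The median differences from the control were -1.004 and -1.29 log2, against falls of -2.14 and -2.09 in the tumours without bskDN. All 3 arrays lay below all 3 control arrays for 41 members in scrib-+RasACT+bskDN and for 43 in scrib-+NACT+bskDN, against 16.3% and 19.0% of all genes. The genes called higher than the control were CG15756 in the Ras and CG9896 in the Notch background (2.05 ± 0.36, adjusted p = 0.00084), while all 3 arrays lay above all 3 control arrays for 3 and 4 members, against 16.5% and 21.4% of all genes.

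The same values can be read as the part of the fall that was absent with bskDN, that is the difference with bskDN divided by the fall from the control. The rule chose the tumours low and the control high, and both enter this ratio, so its size is not independent of the choice of genes. No error was computed for this ratio. Its median over the members was 48.0% in the Ras and 25.8% in the Notch background. In the Ras background 14 members were over 75% and 14 under 25%. The Notch background was more divided, with 18 over 75% and 29 under 25%, of which 15 were below 0, that is lower with bskDN than without. Over 75% in both the Ras and the Notch background were 6 members: CG3097 (111.8% and 98.8%), CG9150 (104% and 134%), CG10657 (87.3% and 79.8%), CG3842 (83.3% and 142.3%), CG15905 (79.9% and 79.0%) and CG9896 (79.3% and 206.5%). The rise of CG15905 in the Ras background was not called.

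At the other end 19 members were called lower than the control in both genotypes with bskDN. The share of all probe sets lower in both was not computed, and the rule chose the control arrays high. The 19 include CG13064, CG5639, CG34382 and CG8172, which carries the serine protease name SP32. CG8172 read 2.61, 2.63 and 2.62 log2 in scrib-+RasACT+bskDN, 2.54, 2.56 and 2.47 in scrib-+RasACT, 2.62, 2.59 and 2.60 in scrib-+NACT+bskDN and 2.63, 2.60 and 2.59 in scrib-+NACT, against 4.46, 3.74 and 4.20 in the control. CG34382 was at 2.86 to 2.91 on all 12 arrays of these genotypes and at 4.18, 3.86 and 4.88 in the control. CG32793 was at 2.18 to 2.20 on the same 12 arrays and at 4.23, 4.46 and 4.36 in the control. For these 3 genes no signal above the low end of the scale was regained with bskDN in either background. The call of CG32793 for scrib-+RasACT+bskDN against the control (-2.16 ± 0.56, adjusted p = 0.022) was lost on leaving out any 1 of the 6 arrays compared (adjusted p = 0.053 to 0.069).

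Calls in the 6 members with the largest falls leaned on single arrays in this comparison. CG3823 was 2.87 ± 0.79 log2 lower in scrib-+RasACT+bskDN than in the control (adjusted p = 0.031), a call lost without scrib-+RasACT+bskDN array 1 or 3 or control array 2 or 3 (adjusted p = 0.071 to 0.14), and CG4586 was 2.92 ± 0.80 lower (adjusted p = 0.031), lost without the same arrays (0.095 to 0.12). CG1273 was 1.97 ± 0.44 lower (adjusted p = 0.0095), lost without scrib-+RasACT+bskDN array 3 (0.052). CG13064 was lower in both, by 2.53 ± 0.38 (adjusted p = 0.00055) and 3.30 ± 0.38 log2 (adjusted p = 1.9e-05), and both calls were kept on leaving out any array. CG15919 was 2.39 ± 0.67 lower in scrib-+NACT+bskDN (adjusted p = 0.022), lost without control array 1 or 3 or any scrib-+NACT+bskDN array (0.051 to 0.083). CG15905 was not called against the control in either background (-0.85 ± 0.75, adjusted p = 0.72, and -1.29 ± 0.75, adjusted p = 0.33).

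The tumours without bskDN can be set against each other, although the rule held both low. In scrib-+RasACT against scrib-+NACT 1 member was higher and 1 lower, or 1.69% each, where 1.19% and 0.778% of all probe sets were called. In the same test 15 members had an unadjusted p under 0.05, and the share of all probe sets under it was not computed. CG15544 was higher by 1.56 ± 0.34 log2 (adjusted p = 0.03), a call lost without scrib-+RasACT array 1 or 2 or scrib-+NACT array 2 or A (adjusted p = 0.071 to 0.098). CG7720 was lower by -1.69 ± 0.16 (adjusted p = 0.00084).

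In the Abrupt experiment the rule compared scrib-+ab with ab, and both can be set against the FRT control. These counts rest on arrays that the rule used, since it chose the genes low in scrib-+ab, high in ab and high in the control, and the 6 arrays of scrib-+ab and ab differ from the control arrays as described above, so they are a description and no independent evidence. Against the control 42 members were lower and none higher in scrib-+ab (71.2%), where 8.46% of all probe sets were lower and 8.72% higher, and the median difference was -2.14 log2. At an unadjusted p under 0.05 there were 46 members, and the share of all probe sets under it was not computed. In ab discs 19 were higher and 7 lower than in the control (32.2% and 11.9%), where 8.68% and 5.87% of all probe sets were called, with a median of 0.55 log2. A further quantile normalization gave 16 higher and 11 lower members, and 48.3% instead of 59.7% of all called probe sets were then higher. The rule required each member to be lower in scrib-+ab than in ab. Set against the control, 8 members were higher in ab and lower in scrib-+ab, 27 were not called in ab and lower in scrib-+ab, and 7 were lower in both. Shares of all probe sets with these patterns were not computed. For the remaining 17 the scrib-+ab level was not called against the control, and 11 of these were higher in ab.

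CG32793 was the extreme of the last kind. It read 7.56, 4.90 and 4.31 log2 in scrib-+ab and 9.69, 9.65 and 10.64 in ab, against 4.23, 4.46 and 4.36 in the control. Its rise in ab was 5.64 ± 0.84 log2 (adjusted p = 0.003), whereas scrib-+ab overlapped the control (1.24 ± 0.84, adjusted p = 0.42). It was thus lower in scrib-+ab than in ab without being lower than on the control arrays. CG15756 (7.32, 5.45 and 7.29 in ab) rose by 2.92 ± 0.63 (adjusted p = 0.015), a call lost without ab array 1 or 3 (adjusted p = 0.054 and 0.051). CG7906 read 2.76, 2.72 and 2.73 in scrib-+ab and 7.45, 7.71 and 8.36 in ab, against 4.11, 5.70 and 5.53 in the control, and was both higher in ab (2.73 ± 0.46, adjusted p = 0.0051) and lower in scrib-+ab (-2.37 ± 0.46, adjusted p = 0.008).

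The 7 members lower in both were CG3842, CG4408, CG5758, CG6287, CG9150, CG42342 and CG43861. For these ab lay below the control and scrib-+ab lay below ab. CG43861 read 4.05, 3.49 and 3.11 log2 in scrib-+ab and 5.35, 5.33 and 5.11 in ab, against 8.46, 9.02 and 8.69 in the control, which is -5.17 ± 0.26 (adjusted p = 3e-05) and -3.46 ± 0.26 log2 (adjusted p = 0.00018). CG3842 read 2.75, 3.44 and 3.12 in scrib-+ab and 5.88, 5.78 and 5.79 in ab, against 7.95, 8.68 and 8.82 in the control. CG5758 read 4.74, 4.23 and 3.12 in scrib-+ab and 7.42, 7.26 and 6.82 in ab, against 9.01, 9.56 and 9.27 in the control. In all 3 genes the 3 groups were in the same order with no overlap between them.

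In scrib-+RasACT CG43861 read 6.95, 7.28 and 7.0 log2, CG3842 read 5.98, 5.77 and 5.94, and CG5758 read 7.20, 7.46 and 6.25, on arrays that cannot be compared in level with those of scrib-+ab without the differences described above. CG5758 rose with bskDN in both backgrounds, by 1.62 ± 0.27 (adjusted p = 0.0063) and 1.32 ± 0.27 (adjusted p = 0.011), while CG43861 did not (0.46 ± 0.19, adjusted p = 0.2, and 0.18 ± 0.19, adjusted p = 0.77).

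**Figure D4:**
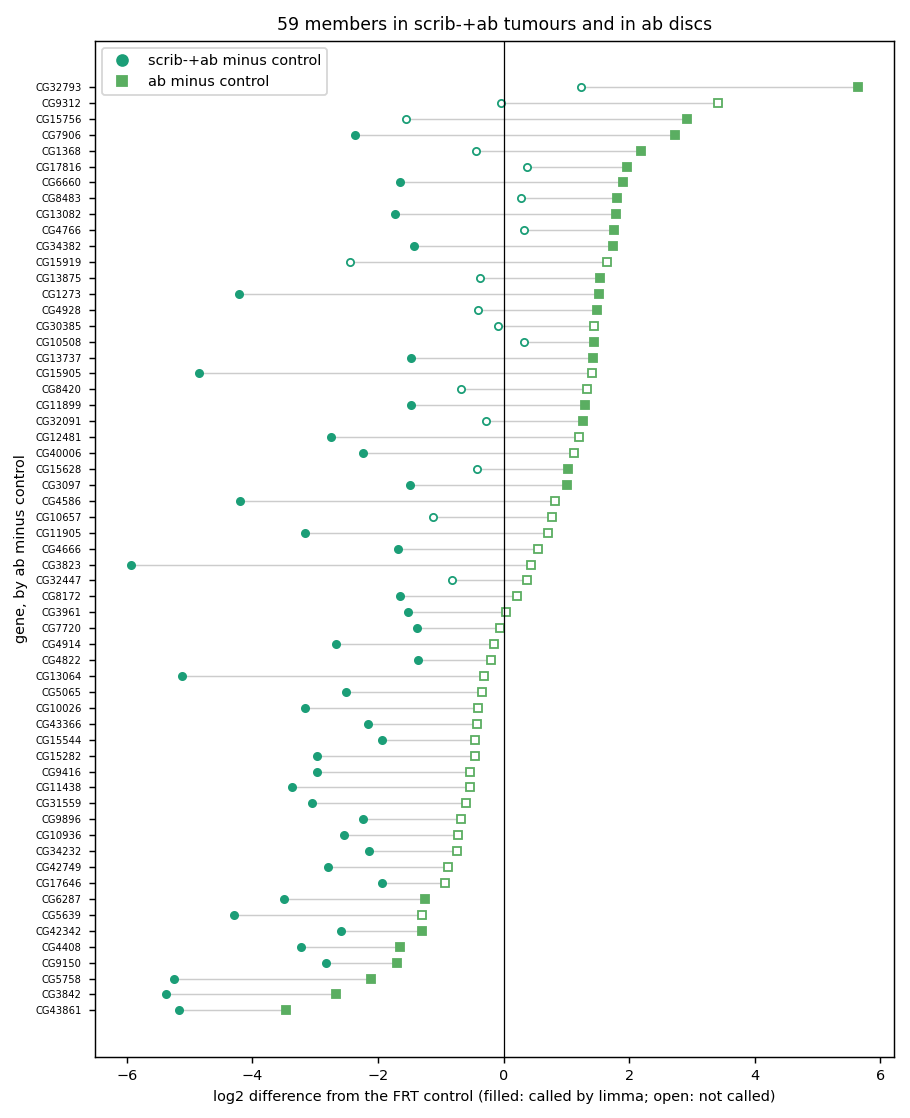
Difference from the FRT control in scrib-+ab (circles) and in ab (squares) for the 59 members, in log2, ordered by the ab value, with filled symbols for limma calls and open symbols for differences that were not called. The 19 filled squares right of 0 and the 7 left of 0 are the members called in ab, and the 42 filled circles all lie left of 0.

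The members that carry a family name differed in pattern among themselves. CG5065, named FAR1 after the fatty acyl-CoA reductases that make long-chain alcohols, read 2.83, 2.56 and 2.66 log2 in scrib-+ab and 4.97, 4.42 and 5.17 in ab. It read 4.35, 3.44 and 2.98 in scrib-+RasACT+bskDN, 2.61, 2.53 and 2.62 in scrib-+RasACT, 3.89, 3.97 and 3.45 in scrib-+NACT+bskDN, 2.62, 2.25 and 2.61 in scrib-+NACT, and 4.70, 5.74 and 5.13 in the control. Both groups with bskDN lay between the tumours and the control, with a called rise in the Notch background (1.28 ± 0.31, adjusted p = 0.025) and none in the Ras background (1.00 ± 0.31, adjusted p = 0.091). The Notch call was lost without scrib-+NACT+bskDN array 1 or A or scrib-+NACT array 2 or A (adjusted p = 0.063 to 0.095). CG17646, named ABCG1 after a family of lipid transporters, read 5.56, 5.12 and 5.09 in scrib-+RasACT+bskDN against 4.70, 4.41 and 4.37 in scrib-+RasACT, and 4.04, 3.79 and 3.52 in scrib-+NACT+bskDN against 4.14, 4.10 and 4.25 in scrib-+NACT, with 6.10, 6.29 and 6.32 in the control. Its interaction was 1.14 ± 0.24 log2 (adjusted p = 0.02), and neither bskDN effect alone was called. After a further quantile normalization the interaction was 0.41 log2 (adjusted p = 0.58). It was also not called without scrib-+NACT+bskDN array A, scrib-+NACT array A or scrib-+RasACT array 2 (adjusted p = 0.051 to 0.056), and without scrib-+RasACT+bskDN array 1 it was 0.99 log2, under the limit.

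Most genes were read by a single probe set, and 11 members had more than 1. A further probe set met the rule for CG13737, CG17816, CG42749 and CG43861. CG43861 gave -1.71, -1.65 and -2.53 log2 in the 3 contrasts with the probe set used and -1.42, -1.69 and -2.53 with the other. For CG10508, CG11905 and CG42342 the other probe sets, which are dimmer, did not meet the rule, and for CG7720, CG15628, CG34382 and CG43366 the other probe set was under 2.5 log2 in every group.

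The members were spread over the genome. Chromosome arms 2L, 2R, 3L, 3R and X held 11, 10, 14, 12 and 12 of them, or 1.15%, 1.00%, 1.35%, 0.956% and 1.36% of the CG genes measured there, and chromosome 4 held none of 13. No 2 members were next to each other in the order of genes. The nearest pairs were CG3823 and CG3842, 3 genes apart on X, and CG1368 and CG12481, 4 apart on X. Named genes that met the same rule lay next to CG8172 (Np), CG8420 (St2) and CG9312 (Cht5).

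Across the 21 arrays the members followed a common profile to different degrees. Each centred on its own mean, their average was -0.92 in scrib-+ab and 1.70 in ab, 0.20 in scrib-+RasACT+bskDN and -1.03 in scrib-+RasACT, -0.04 in scrib-+NACT+bskDN and -1.14 in scrib-+NACT, and 1.23 in the control. As a description, a member's Pearson correlation with the mean of the other 58 had a median of 0.78 and ran from 0.28 (CG43861) to 0.95 (CG1273), over arrays that share the groups by which the genes were chosen. The lowest after CG43861 were CG9150 (0.34), CG3842 (0.34), CG42342 (0.45) and CG10508 (0.46), of which the first 3 are among the genes that were lower in ab as well. The named genes with the highest correlation to the members' mean were Nep2 (0.95), a neprilysin-type metallopeptidase, Cht10 (0.94), a chitinase, Spn43Aa (0.93), a serpin, wbl (0.93), the windbeutel protein of the secretory pathway, bab2 (0.925), a transcription factor of antennal and leg patterning, and nebu (0.92). All 6 met the rule themselves.

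Lists of genes show what other RNAs met the same rule. Of 18 genes of the ecdysone response measured 8 did, led by ImpE2, Blimp-1 and ImpE1, and of 13 photoreceptor and neuron genes 5 did, led by sens, sev and chp. None did of the lists of haemocyte (11), muscle (9), fat body (4), neuroblast and glial (9), salivary gland (7), tracheal and chitin (5), eye and antennal disc (9), Notch pathway (12), JNK response (14), cell death (8), photoreceptor recruitment (10) and housekeeping genes (3), with the number measured in brackets. The background is 1.36% of all genes. Within the ecdysone response list ftz-f1 went the other way. It was higher by 1.096 log2 in scrib-+ab against ab, and by 1.071 and 2.043 in scrib-+RasACT and scrib-+NACT against the control. These lists were drawn up with earlier results of the same arrays known. The tracheal and chitin list does not stand for cuticle genes at large: Cpr97Ea, Cpr49Ah and TwdlT, which encode cuticle proteins, the chitinases Cht5 and Cht10, and Osi4, Osi6, Osi24 and dy met the rule and were picked out after their values were seen. Nor does the eye and antennal disc list stand for patterning genes at large. The genes bab2, ss and al, which the study counts among antennal cell fate markers, met the rule and were picked out in the same way.

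The ecdysone response list had mean levels of 6.73 log2 in scrib-+ab and 8.89 in ab, 7.61 in scrib-+RasACT+bskDN and 6.62 in scrib-+RasACT, 7.97 in scrib-+NACT+bskDN and 6.38 in scrib-+NACT, and 8.26 in the control. With bskDN 5 of its 18 genes rose in the Ras and 7 rose and 1 fell in the Notch background, so that the list was higher with bskDN in both, like the members. The photoreceptor and neuron list was at 8.30 in scrib-+RasACT+bskDN and 7.14 in scrib-+RasACT, but at 5.96 in scrib-+NACT+bskDN and 6.70 in scrib-+NACT, against 8.09 in the control. With bskDN 7 of its 13 genes rose in the Ras background, and none rose and 4 fell in the Notch background. The part of either in the members' values was not tested.

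**Figure D5:**
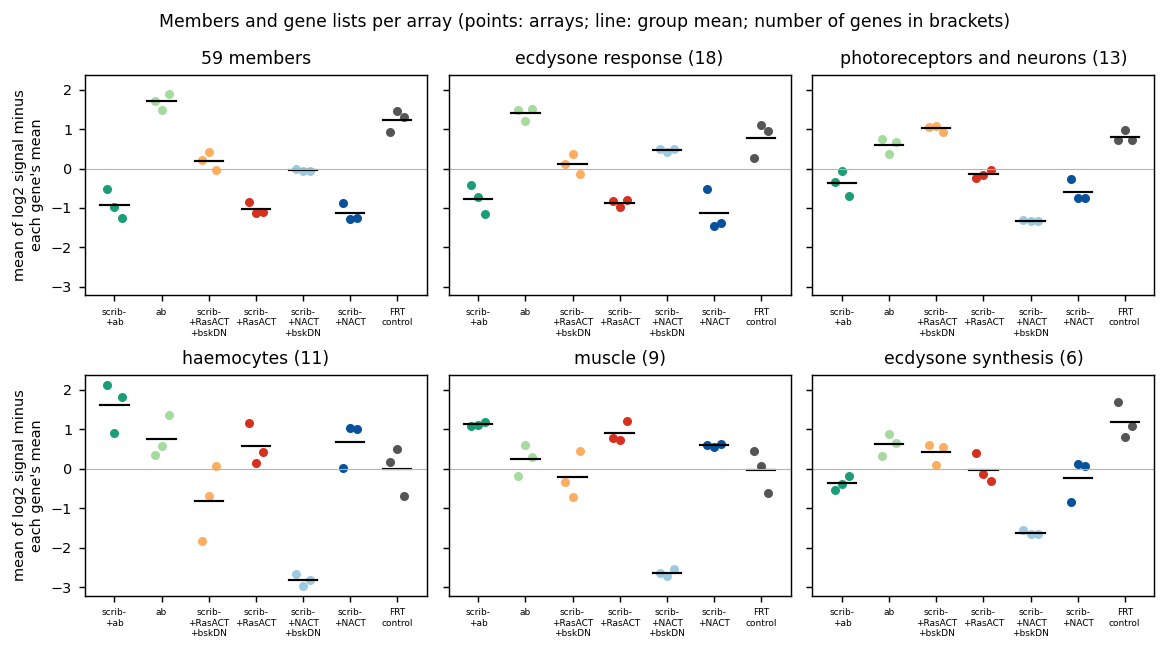
Mean of the log2 signals, each gene centred on its own mean over 21 arrays, per array (points) and group (line), for the 59 members and 5 gene lists with the number of genes in brackets. The members and the ecdysone response list are low in scrib-+ab, scrib-+RasACT and scrib-+NACT; the photoreceptor, haemocyte, muscle and ecdysone synthesis lists are lowest in scrib-+NACT+bskDN.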

How the data were processed

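Total RNA of 21 samples was hybridised to Affymetrix GeneChip Drosophila 2.0 arrays (6 µg total RNA as biotinylated cRNA). The authors deposited a log2 signal for each probe set, made with GCRMA, a background correction from probe sequence with quantile normalization and summary over probes. The version and the arrays normalized together are not given in the sources used here. No scanner files were used here.

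The 183 control probe sets were left out and 18769 tested with no filter. Symbols came from the array annotation, updated through the RefSeq gene table (Release 6 plus ISO1 MT). That table served for names, chromosome and gene order alone. A single symbol was given to 13647 probe sets, several to 402 and none to 4720, and 13544 of the 13647 were matched by gene ID, 91 by symbol or synonym and 12 not at all. They represent 11953 genes, each by its brightest probe set. The members and lists were chosen with earlier results of these data known, and the ecdysone synthesis list after values were seen.

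Differences were tested with lmFit and eBayes of limma 3.58.1 (R 4.3.3, two-sided, no block): the 4 Ras and Notch groups together (12 arrays), scrib-+ab, ab and control together (9 arrays), and bskDN groups against the control with all 21 arrays. A probe set was called at a Benjamini-Hochberg adjusted p under 0.05 over all probe sets and a difference over 1 log2. Every adjusted p in the text is limma's, and each error with a difference is its SE. The test was checked on simulated data first.

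Genes given by array were the 6 with the largest mean fall and the members with the largest called differences per direction for bskDN (up to 4) and ab (up to 3). Chosen after values were seen were CG11438, CG17646, CG5065, CG7720, CG4914, CG8172 and CG34382. Alternatives were array weights, the compared groups alone, eBayes with trend and robust settings, a filter on low values (5 log2), a further quantile normalization, the mean over a gene's probe sets, a block for replicate labels, the adjusted p alone and leaving out each array.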

Additional observations from a re-analysis of the deposited data

Results flagged for a closer look

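A difference between the effects of bskDN in the 2 tumour backgrounds was called by limma's interaction test for 13 members, each value being the effect in the Ras background minus that in the Notch background in log2. It was positive for CG15756 (5.668), CG10508 (3.591), CG4408 (2.319), CG3961 (1.807), CG34232 (1.692), CG42342 (1.568), CG15628 (1.525), CG4766 (1.454), CG4666 (1.406) and CG17646 (1.143), and negative for CG9896 (-1.952), CG15544 (-2.612) and CG31559 (-3.049). The calls of CG34232 and CG42342 were each lost on leaving out any of 10 of the 12 arrays, all but scrib-+NACT array 1 and scrib-+RasACT array 3 (adjusted p = 0.053 to 0.085 and 0.051 to 0.09), and that of CG9896 on leaving out any of 9. After a further quantile normalization CG34232 was at 1.157 (adjusted p = 0.1), CG4666 at 0.844 (0.027) and CG17646 at 0.414 (0.58), and none was called. With the mean over a gene's probe sets CG42342 was at 0.224 (0.5) and CG15628, whose other probe set is near the floor, at 0.742 (0.0019). For CG15756 and CG31559 the level without bskDN was near the low end of the scale on most arrays, so that the size of the difference depends on the background correction. Groups held 3 arrays, too few for a test of single outlying arrays.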

How the results depend on the processing

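Counts of called members kept within 1.5 times of the reported count under every alternative tried except the following. A block for replicate labels gave 10 calls instead of 24 for bskDN in the Ras background, 11 instead of 29 in the Notch background, 3 instead of 13 for the interaction, 10 instead of 22 for scrib-+RasACT+bskDN against scrib-+NACT+bskDN, and 0 instead of 2 for scrib-+RasACT against scrib-+NACT. The labels share only numbers and letters, and arrays of the same label did not deviate together (correlations of -0.14, 0.0031 and -0.10 in the Ras pairs and 0.032 and -0.0059 in the Notch pairs), so the unblocked fit is reported. Fitting the compared groups alone gave 12 calls for bskDN in the Ras background, 16 instead of 28 for scrib-+RasACT+bskDN against the control and 1 for scrib-+RasACT against scrib-+NACT. In that fit CG1273, CG4914, CG5758, CG7906, CG9896, CG10508, CG11438 and CG15919 were among the members not called for bskDN in the Ras background (adjusted p = 0.05 to 0.24), and CG15905 and CG15756 among those not called in the Notch background (0.067 and 0.083). Array weights gave 22 interaction calls and 7 for scrib-+RasACT against scrib-+NACT, where the mean over probe sets gave 1 and the adjusted p alone 4. Over all probe sets the calls were 792 for bskDN in the Ras background (424 with the compared groups alone, 430 with the block), 1008 in the Notch background (538 with the block), 847 for the interaction (1291 with array weights, 250 with the block), 369 for scrib-+RasACT against scrib-+NACT (654 with array weights, 84 with the compared groups alone, 65 with the block) and 1183 for the genotypes with bskDN (658 with the block). A limit of 1.5 log2 would keep 37 of the 59 members. Leaving out each array in turn gave 18 to 26 and 23 to 31 calls for bskDN in the Ras and Notch backgrounds, 9 to 18 for the interaction, 1 to 6 for scrib-+RasACT against scrib-+NACT, 18 to 21 for the genotypes with bskDN against each other, 20 to 30 and 30 to 35 for these against the control, 18 to 23 for ab and 33 to 40 for scrib-+ab against the control, and 56 to 64 members. Signs were compared only for the 6 members with the largest falls and those with the largest called differences, and no called difference of these changed sign. Over all probe sets the share of higher calls for scrib-+RasACT against scrib-+NACT was 60.4%, and 46.0% with array weights. The cause of these changes was not tested. Falls of genes near the floor of 2.17 log2 are bounded by it.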

Other observations

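Genes of ecdysone synthesis, listed after values of these arrays were seen, also met the conditions that chose the 59: spok, dib, sad and sro did, of 6 measured. They encode or are linked to steps by which the ring gland, a gland attached to the brain, makes the hormone. The list averaged 7.79 log2 in scrib-+ab and 8.78 in ab, 8.57 in scrib-+RasACT+bskDN and 8.14 in scrib-+RasACT, 6.54 in scrib-+NACT+bskDN and 7.93 in scrib-+NACT, and 9.35 in the control. The level of spok was 10.21 in scrib-+NACT+bskDN and 12.33 in scrib-+NACT, against 13.86 in the control. In the Notch background with bskDN 3 of the 6 fell, where the members as a whole were higher than without bskDN.

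Of named genes that met the rule the largest mean fall was that of ImpE2, an ecdysone-inducible gene, at 6.19 log2 in scrib-+ab and 14.10 in ab, 10.82 in scrib-+RasACT, 5.17 in scrib-+NACT and 14.18 in the control. With bskDN it stood at 11.86 in the Ras and 12.92 in the Notch background.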
